A study of Mus musculus with 4 samples.

Results

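The nuclear genes of the respiratory chain and the ATP synthase were followed across 4 microarrays of a crosslinking and immunoprecipitation study of the RNA-binding protein Msi1 in mouse intestine. Members were chosen by symbol alone, as every gene whose single annotated symbol begins with Nduf followed by a, b, c, s or v, is Sdha, Sdhb, Sdhc or Sdhd, or begins with Uqcr, with Cox and a digit of 4 to 8, or with Atp5. This gave 89 of 19937 genes, read by 113 of 21640 probe sets that carry 1 gene symbol. Of these 89 genes, 81 encode structural subunits and the others encode complex I assembly factors and the supercomplex factor Cox7a2l. By complex there were 41 genes for complex I, 4 for complex II, 8 for complex III, 19 for complex IV and 17 for complex V.

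Each group was 1 Affymetrix Mouse Gene 1.0 ST array hybridised with biotinylated cDNA made from 100 ng of RNA. The groups were RNA recovered with an antibody to Msi1 (Millipore AB5977), RNA recovered with an antibody given only as hnRNP, RNA recovered with IgG, and input RNA that went through no antibody. All 4 came from intestinal epithelium of adult C57BL/6 mice, and each array carried material pooled from 2 separate experiments, so no array is a replicate of another. Enrichment was intended to be ranked against IgG. No genotype or treatment separates the groups, and the antibody alone distinguishes them. A difference between 2 arrays therefore has no replicate check, and no p-value is given.

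Oxidative phosphorylation takes place at the inner mitochondrial membrane. Complexes I and II pass electrons from NADH and succinate to ubiquinone, complex III passes them to cytochrome c and complex IV to oxygen, and the proton gradient built on the way drives ATP synthesis at complex V. Most subunits are made in the cytosol from nuclear genes and imported, and absorptive enterocytes are rich in mitochondria. Msi1 binds mRNAs and is best known as a translational regulator of stem and progenitor cells, in the gut among other tissues.

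Values are the deposited log2 signals. A signal was called detected when it exceeded a floor set on the same array by 1208 probe sets for olfactory and vomeronasal receptors, at their 95th percentile, which gave floors of 4.74 for Msi1, 5.17 for hnRNP, 5.26 for IgG and 4.09 for input. A gene entered a comparison when it was detected on at least 1 of its 2 arrays, and was counted as higher or lower from a 2-fold difference on. Where the dimmer array was below its floor, the fold is a lower bound taken against that floor. The tissue label was checked on markers: all 6 enterocyte genes had input signals of 9.53 to 11.58 and all 5 epithelial genes 7.61 to 12.79, while 0 of 5 muscle, 0 of 3 endothelial, 1 of 4 neuronal, 3 of 4 immune and 0 of 1 red cell markers exceeded the input floor. The standard deviation over all probe sets was 1.38 for Msi1, 1.2 for hnRNP, 1.17 for IgG and 2.01 for input, so the arrays differ in spread. In pooled tissue RNA, fewer cells of a type and less RNA per cell cannot be told apart.

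The respiratory genes were well represented in the starting RNA. On input, 85 of the 89 members (95.5%) exceeded the floor, against 59.1% of all genes. The 4 below it were Cox7b2, Cox8b, Ndufa4l2 and Ndufaf5. After immunoprecipitation 74 members (83.1%) exceeded the floor with Msi1, 59 (66.3%) with hnRNP and 56 (62.9%) with IgG, against 47.8%, 32.9% and 28.1% of all genes. The median member signal was 5.70 with Msi1, 5.38 with hnRNP, 5.48 with IgG and 7.71 in input. Cox7b2, Cox8b and Ndufaf5 exceeded no floor, which left 86 members detected on at least 1 array.

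With the Msi1 antibody, a minority of the respiratory genes stood above IgG, while the set as a whole lay close to all genes. Of 78 members detected on either array, 18 (23.1%) were at least 2-fold higher with Msi1 than with IgG and 4 (5.13%) at least 2-fold lower. Among all 10368 genes detected in this comparison, 18.6% were higher and 6.91% lower, so the members' share of higher genes is near the background. The median difference was 0.14 log2 units for members, with quartiles of -0.27 and 0.83, and 0.06 for all genes, with quartiles of -0.45 and 0.71. By complex, 5 of 34 detected genes of complex I were higher, 1 of 4 of complex II, 3 of 8 of complex III, 5 of 16 of complex IV and 4 of 16 of complex V. The 4 lower genes were 3 of complex I and 1 of complex V.

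Scaling changes this balance. With every array forced to the same distribution (quantile normalization), 15 members (19.2%) were higher and 11 (14.1%) lower, beside 22.4% and 15.1% of all genes. Higher genes then made up 57.7% of the members called and 59.7% of all genes called, against 81.8% and 72.9% with the deposited values. Of the 18 genes called higher as deposited, 13 stayed so, and Atp5b, Cox5b, Ndufa11, Ndufc2 and Sdha did not. The members' median was then just under 0. With signals under a floor raised to it, 14 of 78 detected members were higher and 4 of 78 lower. Of all 10368 detected genes, 1118 (10.8%) were then higher and 402 (3.88%) lower. The median was then 0.02 for members and -0.20 for all genes, and this gap was not tested.

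**Figure D1:**
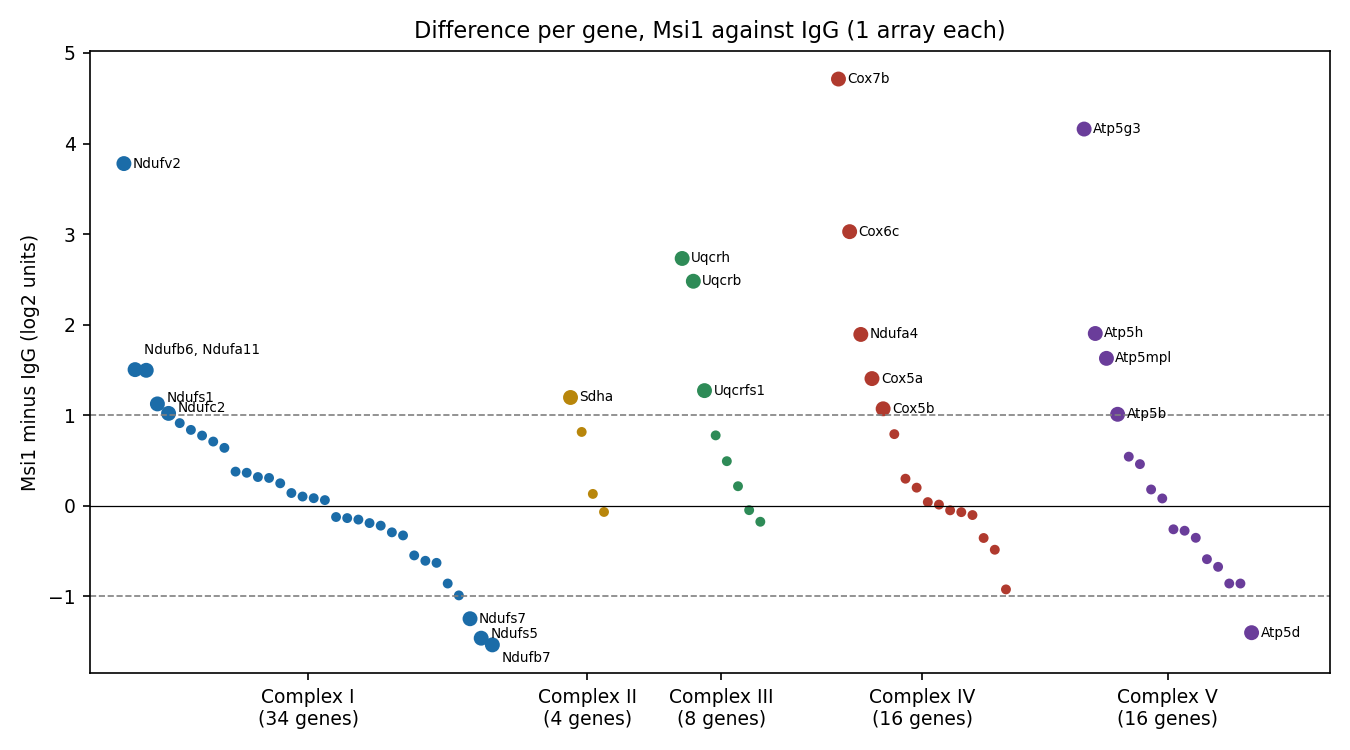
Msi1 minus IgG signal in log2 units for the 78 detected members, 1 point per gene, ordered within each complex; dashed lines mark a 2-fold difference and large labelled points are the 22 genes past it. Cox7b at 4.71 and Atp5g3 at 4.16 lie highest, and most genes lie between the lines.

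Promoter GC content and gene length, which the choice of members did not use, were compared between the genes that differed and the rest. RefSeq promoter windows on GRCm38.p6, 250 bases before to 50 after the start, matched 73 of the 89 members. Median GC content of the windows was 58.2% for the members higher with Msi1 than with IgG, 57.7% for the lower ones and 58.7% for the remaining detected members, against 57.5% for all genes. Median gene length was 6.92 kb for the higher members, 6.30 kb for the lower ones and 7.5 kb for the rest, against 17.7 kb for all genes. Over the 65 of 78 detected members with a window, GC content and the Msi1 to IgG difference had r = -0.12 and rho = -0.06. All genes had r = 0.10 and rho = 0.10 there. Over 70 of 85 detected members, GC content had r = 0.22 with the Msi1 to input difference and 0.27 with that of IgG. All genes had r = -0.02 and -0.07 for these. Such values describe genes, which are not replicates, and the relations were not tested.

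Complex I, the NADH dehydrogenase, held the widest mix, with 5 genes higher, 3 lower and a median of 0.09 over its 34 detected genes. Ndufv2, an iron-sulfur subunit of the NADH-oxidising arm, had signals of 8.06 with Msi1, 4.73 with hnRNP, 4.29 with IgG and 9.18 in input. Its Msi1 signal was at least 6.96-fold above IgG, and the hnRNP and IgG signals were both below their floors. Ndufs1, the large iron-sulfur subunit of the same arm, had 5.93 with Msi1, 5.03 with hnRNP, 4.81 with IgG and 6.54 in input, at least 1.59-fold above IgG. The measured difference of 1.13 passed 2-fold, but that against the IgG floor did not.

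The other 4 core subunits were lower with Msi1 than with IgG or within 2-fold of it on the probe sets taken. Ndufs7, an iron-sulfur subunit next to the ubiquinone site, had 5.04 with Msi1, 5.69 with hnRNP, 6.29 with IgG and 11.63 in input, and was 2.37-fold lower with Msi1 than with IgG. Its difference between Msi1 and input, -6.59, was the lowest in complex I. Ndufv1, which binds NADH and flavin, differed by -0.63, Ndufs8 by -0.33 and Ndufs3 by -0.15 from IgG, all within 2-fold, although a second probe set of Ndufs3 differed by 2.12. The 6 detected core genes thus had 2 higher, 1 lower and a median of -0.24.

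Among the accessory subunits of complex I, 3 of 23 detected genes were higher and 2 lower. Ndufa11, a membrane-arm subunit, had 8.17 with Msi1, 6.80 with hnRNP, 6.67 with IgG and 8.20 in input, 2.82-fold above IgG. It was above the floor on all 4 arrays and stood at the input level with Msi1 only. Ndufb6, another membrane-arm subunit, had 5.61, 3.78, 4.11 and 7.78 on the Msi1, hnRNP, IgG and input arrays, at least 1.27-fold above IgG. Ndufc2 had 6.56 with Msi1, 5.57 with hnRNP, 5.54 with IgG and 9.47 in input, 2.03-fold above IgG. Its difference of 1.02 lay just inside the 2-fold line, and those of Ndufaf4 and Ndufa1, 0.91 and 0.84, just outside it.

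On the lower side, Ndufb7, an accessory subunit facing the intermembrane space, had 4.51 with Msi1, 5.93 with hnRNP, 6.05 with IgG and 7.14 in input, at least 2.48-fold below IgG. Ndufs5, found on the same side of the membrane, had 4.54 with Msi1, 5.25 with hnRNP, 6.00 with IgG and 4.95 in input, at least 2.40-fold below IgG. For both genes the Msi1 signal was under its floor, and Ndufs5 was brighter with IgG than in input. Ndufb10 at -0.99 lay just outside the line. None of the 5 detected assembly factors passed 2-fold as deposited, and Ndufaf4 came nearest at 0.91; 1 of them passed with arrays centred or quantile normalized. Ndufb3 at 1.18 and Ndufaf6 at -1.06 differed by more than 2-fold between signals that were both under the floor, and were not counted.

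Complex II, succinate dehydrogenase, is the only member complex encoded wholly in the nucleus and also works in the TCA cycle. Sdha, its flavoprotein, had 7.0 with Msi1, 5.27 with hnRNP, 5.80 with IgG and 9.10 in input, 2.29-fold above IgG. Sdhc, a membrane anchor, had 8.20 with Msi1, 6.87 with hnRNP, 7.39 with IgG and 9.89 in input, a difference of 0.82 from IgG. The iron-sulfur subunit Sdhb differed by 0.13 and the second anchor Sdhd by -0.07. The flavoprotein alone therefore passed 2-fold, although its partners were also above the Msi1 floor.

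Complex III, the cytochrome bc1 complex, had the highest median of the 5 complexes, 0.64 over its 8 member genes. Of these, 3 were higher and 0 lower. Its cytochrome c1 subunit, Cyc1, falls outside the symbol rule, is not in that median and was counted with the electron carriers below. Cyc1 had 5.13 with Msi1 and 6.03 with IgG, a difference of -0.91, below every member of the complex. Uqcrh, the hinge protein, had 8.16 with Msi1, 5.58 with hnRNP, 5.43 with IgG and 9.14 in input, 6.64-fold above IgG. Uqcrb, a small subunit near the quinone site, had 8.59 with Msi1, 5.75 with hnRNP, 6.11 with IgG and 10.15 in input, 5.58-fold above IgG. Both stood apart from the hnRNP and IgG arrays, which were close to each other. Uqcrfs1, the Rieske iron-sulfur protein, had 6.45 with Msi1, 5.50 with hnRNP, 5.17 with IgG and 6.47 in input, at least 2.27-fold above IgG. The core proteins were within 2-fold: Uqcrc2 differed by 0.78 and Uqcrc1 by -0.18, with the small subunit Uqcr11 at -0.05. The median of complex III was 0.74 with arrays centred and 0.72 after quantile normalization. With signals raised to the floor it was 0.42, the same to 2 decimals as that of complex II.

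Complex IV, cytochrome c oxidase, held the largest difference of all members. Cox7b, a small structural subunit, had 9.99 with Msi1, 5.21 with hnRNP, 5.28 with IgG and 10.92 in input, 26.2-fold above IgG. Its hnRNP and IgG signals lay just above the floors of 5.17 and 5.26, so this fold was read against a signal near the floor. Cox6c, another small subunit, had 7.93 with Msi1, 5.26 with hnRNP, 4.91 with IgG and 11.22 in input, at least 6.36-fold above IgG. Cox7b with Msi1 approached its own input signal, while Cox6c differed from its own by -3.29.

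Further genes of complex IV were higher by smaller margins. Ndufa4, first assigned to complex I and now counted with cytochrome c oxidase, had 6.26 with Msi1, 4.65 with hnRNP, 4.37 with IgG and 7.26 in input, at least 1.99-fold above IgG. Cox5a, a subunit on the matrix side, had 6.23 with Msi1, 5.38 with hnRNP, 4.83 with IgG and 7.16 in input, at least 1.95-fold above IgG. Cox5b, its partner there, had 7.48 with Msi1, 5.96 with hnRNP, 6.41 with IgG and 10.56 in input, 2.10-fold above IgG. The other 11 detected genes of the complex were within 2-fold, with Cox6b2, an isoform known from testis, lowest at -0.92 and Cox4i2, an isoform known from lung, next at -0.48.

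Complex V, the ATP synthase, had 4 genes higher and 1 lower, with a median of -0.09 that became 0.01 with arrays centred and -0.42 after quantile normalization. Atp5g3, which encodes subunit c of the membrane ring, had 8.81 with Msi1, 5.26 with hnRNP, 4.65 with IgG and 10.13 in input, at least 11.7-fold above IgG. Atp5h, a subunit of the peripheral stalk, had 7.53 with Msi1, 5.29 with hnRNP, 5.63 with IgG and 9.11 in input, 3.74-fold above IgG. Atp5mpl, a small membrane subunit, had 7.61 with Msi1, 6.04 with hnRNP, 5.98 with IgG and 7.97 in input, 3.09-fold above IgG. In all 3 genes the Msi1 signal lay nearer to input than to IgG.

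Of the 5 genes of the catalytic head and central stalk (F1), 1 was higher and 1 lower, with a median of -0.27, and of the 11 detected genes of the peripheral stalk and membrane part 3 were higher and 0 lower, with a median of 0.08. After quantile normalization the stalk and membrane genes had 3 higher and 4 lower, with a median of -0.25. Atp5b, the catalytic beta subunit, had 7.32 with Msi1, 5.27 with hnRNP, 6.31 with IgG and 11.60 in input, 2.02-fold above IgG, the smallest difference that was counted. Atp5d, the delta subunit of the central stalk, had 5.01 with Msi1, 5.64 with hnRNP, 6.41 with IgG and 12.02 in input, 2.64-fold below IgG. Its difference between Msi1 and input, -7.01, was the lowest of all detected members. Atp5a1 differed from IgG by 0.18, Atp5c1 by -0.27 and Atp5e by -0.35. Atp5md, which is known to help ATP synthase dimers form, and Atp5g2 both differed by -0.86.

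**Figure D2:**
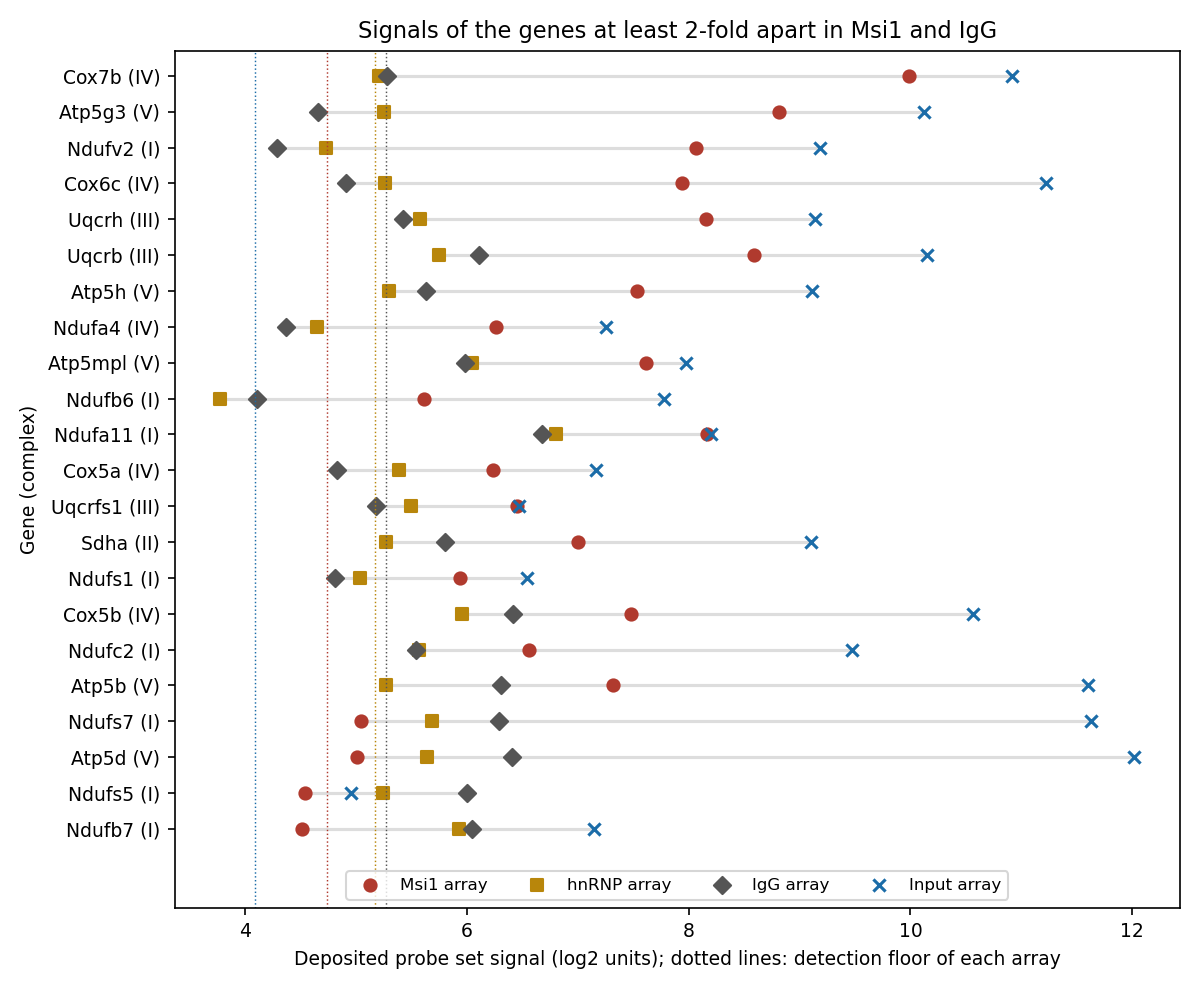
Deposited log2 signals of the 22 called genes on the Msi1, hnRNP, IgG and input arrays, with dotted lines at each array's floor. In the 18 higher genes the Msi1 point lies between the hnRNP and IgG points on the left and input on the right; in Ndufs7, Atp5d, Ndufs5 and Ndufb7 it lies leftmost.

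Paralogs that encode the same subunit were compared on the probe sets taken. The Atp5g genes make an identical mature subunit c behind different import peptides, and only Atp5g3 passed 2-fold among the probe sets taken. Atp5g1 had 6.30 with Msi1, 6.08 with hnRNP, 6.22 with IgG and 10.85 in input, a difference of 0.08. Atp5g2 had 8.41 with Msi1, 9.63 with hnRNP, 9.27 with IgG and 6.48 in input, so all 3 immunoprecipitates were brighter than input on that probe set. Its other 2 probe sets were higher with Msi1 than with IgG, at 1.74 and 1.88, so the contrast with Atp5g3 rests on the probe set taken. Close copies can share probes, so paralog values are uncertain.

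The tissue isoforms of complex IV did not pass 2-fold between Msi1 and IgG. Cox6a1, the widespread isoform, differed by 0.79 between Msi1 and IgG and its muscle counterpart Cox6a2 by -0.07. Cox4i1, the widespread isoform, had 5.70 with Msi1, 4.96 with hnRNP, 5.69 with IgG and 8.98 in input, a difference of 0.01. Cox7a1, known from heart and skeletal muscle, had 5.05 with Msi1, 4.01 with hnRNP, 5.10 with IgG and 7.70 in input. It exceeded the input floor, although the 5 muscle markers had input signals of 3.02 to 4.08, all under it. Cox8c, known from testis, had 5.04 with Msi1, 6.73 with hnRNP, 5.14 with IgG and 4.32 in input, and so was brightest with hnRNP. Cox8a, the widespread isoform, differed by -0.35, and Cox8b and Cox7b2, a relative of Cox7b, exceeded no floor. Cox7a2 differed by 0.04, Cox7a2l by 0.20 and Cox6b1 by 0.30.

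Where a gene had more than 1 probe set, the choice of probe set often mattered. Each gene was represented by its brightest probe set on average, and 17 members had several, 41 probe sets in all. In 9 of these genes the Msi1 to IgG differences spanned over 1 log2 unit. Atp5l, a membrane subunit, ranged over 5 probe sets from -0.07 to 3.37 and was represented by one at 0.46. Atp5pb, of the peripheral stalk, had 0.54 and 3.99. Ndufs3 had -0.15 and 2.12, and Atp5g2 had -0.86, 1.74 and 1.88.

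Other genes were called on one probe set and not on another. Ndufa11 had 1.5 and -0.59, and Atp5h had 1.90, 0.66 and -0.36, the last below both floors. Ndufb11, an accessory subunit of complex I, had -0.19 and -1.26. By contrast, every probe set was higher for Cox5b, Cox6c, Cox7b and Uqcrb. Cox7b had 4.71 and 3.05, and Uqcrb had 2.48, 3.18 and 1.64. Over all 99 detected member probe sets, 30 were at least 2-fold higher and 5 lower, and among all 11164 detected probe sets with 1 symbol 19.8% were higher and 7.04% lower. Several of the 30 belong to the same genes and are not independent. The annotation lists the same transcripts for all probe sets of a gene, so it does not tell which transcripts differ.

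**Figure D3:**
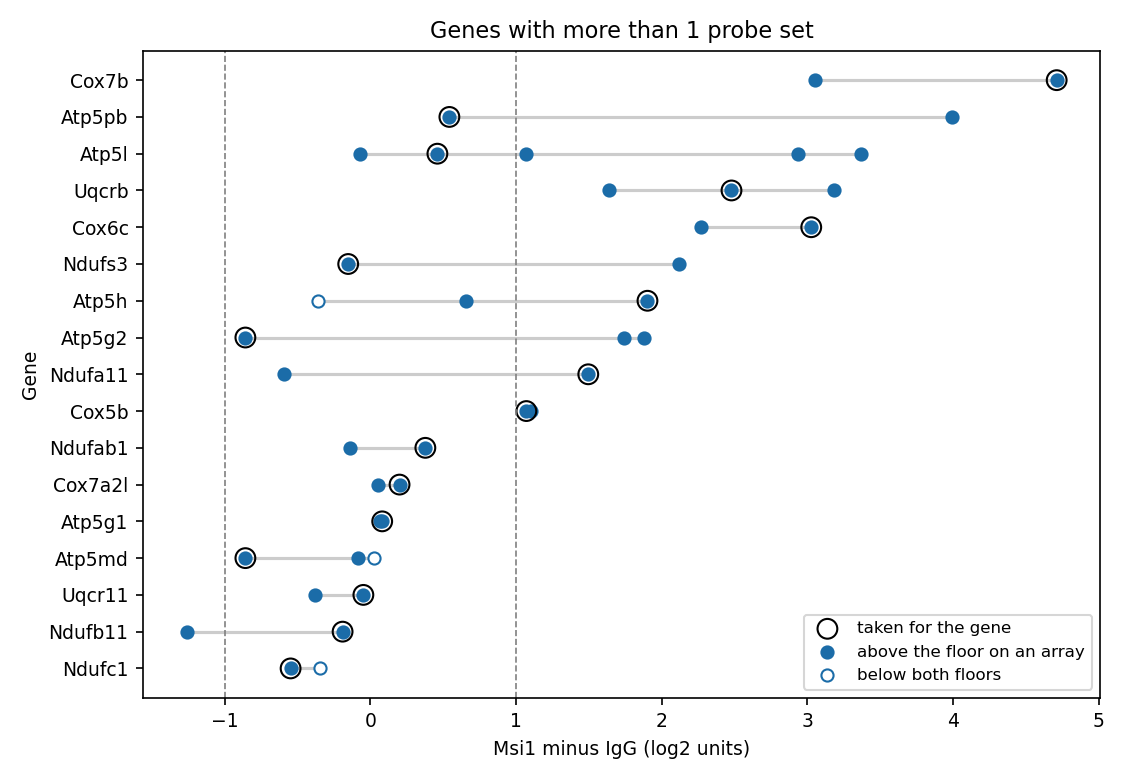
Msi1 minus IgG in log2 units for each probe set of the 17 members with several, with rings on the probe set taken and open points where both arrays were below their floors. Cox7b, Uqcrb, Cox6c and Cox5b lie right of the 2-fold line throughout, whereas Atp5l, Atp5pb, Ndufs3 and Atp5g2 straddle it.

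Set against hnRNP in place of IgG, the same numbers of members passed 2-fold. Of 78 detected members, 18 (23.1%) were higher with Msi1 and 4 (5.13%) lower, beside 17.5% and 7.79% of all genes. The highest differences were 4.78 for Cox7b, 3.56 for Atp5g3 and 3.34 for Ndufv2. The hnRNP signal of Ndufv2 was under its floor, against which the difference was 2.90. The lowest were -1.72 for Ndufa4l2, a paralog of Ndufa4, then -1.69 for Cox8c and -1.42 for Ndufb7. The Msi1 signals of Ndufa4l2 and Ndufb7 were under the floor, and taken against it their differences were -1.59 and -1.19, behind Cox8c and, for Ndufb7, behind Atp5g2 at -1.22. Medians by complex were -0.02 for I, 0.95 for II, 0.85 for III, 0.52 for IV and -0.03 for V. Of the 18 genes above IgG, 14 (77.8%) were also above hnRNP, close to the 75.3% of all 1927 genes above IgG. Both comparisons use the same Msi1 array, so the overlap is fixed in part by that array.

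The hnRNP and IgG arrays themselves differed little over the respiratory genes. Of 64 detected members, 3 were higher with hnRNP and 2 lower, with a median of -0.12, beside 6.26% and 4.51% of all genes and a median of 0.08. The higher genes were Cox8c at 1.59, Atp5l at 1.26 and Ndufa4l2 at 1.24. Cox8c and Ndufa4l2 were under the IgG floor, against which they differed by 1.46 and 1.06. The lower genes were Atp5md at -1.47 and Atp5b at -1.03, followed within 2-fold by Ndufb8 at -0.93. No member was above IgG with both antibodies, 0 of the 62 detected in both comparisons, beside 140 of 7147 genes (1.96%), so a count of 0 is near the background. Across the 89 members, signals of the hnRNP and IgG arrays correlated with r = 0.86 and rho = 0.83. Over all 19937 genes r was 0.79 and rho 0.77. These values are descriptions across genes, which are not replicates and share probe properties on these arrays.

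Most respiratory genes read lower after immunoprecipitation with Msi1 or IgG than in input. With Msi1, 53 of 85 detected members (62.4%) were at least 2-fold below input and 1 was above it, Atp5g2 at 1.93, which did not hold on its probe set brightest on input. The background over all genes was 38.3% lower and 11.8% higher, and the median was -1.57 for members and -0.57 for all genes. After quantile normalization 33 members (38.8%) were lower and 3 (3.53%) higher, beside 18.9% and 12.2% of all genes. The median was then -0.55 for members, against -0.11 for all genes. The lowest members were Atp5d at -7.01, Ndufs7 at -6.59 and Uqcrc1 at -4.60, and the next above Atp5g2 were Ndufaf2 at 0.83 and Cox8c at 0.72. Of the 18 genes above IgG, 10 (55.6%) were also at least 2-fold below input, 8 (44.4%) were within 2-fold of it, such as Ndufa11 at -0.03 and Uqcrfs1 at -0.02, and 0 were above it. Over the 1927 genes above IgG these shares were 46.6%, 45.3% and 8.15%.

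By part of the complexes, the counts below input were as follows, and the differences between parts were not tested. All 4 genes of complex II, all 5 genes of the ATP synthase head and 5 of 6 core genes of complex I were lower with Msi1, with medians of -2.08, -3.10 and -3.10. After quantile normalization 1 of 4, 3 of 5 and 4 of 6 were lower, with medians of -0.70, -1.66 and -1.68. Of all genes, 38.3% were lower as deposited and 18.9% after quantile normalization. Of the 6 detected assembly factors of complex I, 1 was lower as deposited, with a median of 0.08. The median input signal was 5.08 for all 7 assembly factors and 8.60 for the 6 core genes, on different probe sets, and its part in these counts was not tested.

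With IgG, set against the same input array, the members lay lower still. Of 85 detected members, 61 (71.8%) were below input and 4 above it, beside 44.7% and 16.6% of all genes. Lowest were Cox6c at -6.31, or -5.96 against the IgG floor that its IgG signal did not reach, Cox7b at -5.64 and Atp5d at -5.61. The 4 above input were Atp5g2 at 2.79, Cox6b2 at 1.06, Ndufs5 at 1.05 and Ndufaf6 at 1.03. The IgG signal of Ndufaf6 was itself under the IgG floor, and with arrays centred only Atp5g2 remained above input. The median was -2.30 for members and -0.71 for all genes. Across the 89 members, the correlation between the Msi1 and input signals was r = 0.60 (rho = 0.59), and that between the IgG and input signals r = 0.36 (rho = 0.39). Over all 19937 genes r was 0.74 and 0.42, and these values again describe genes within arrays.

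**Figure D4:**
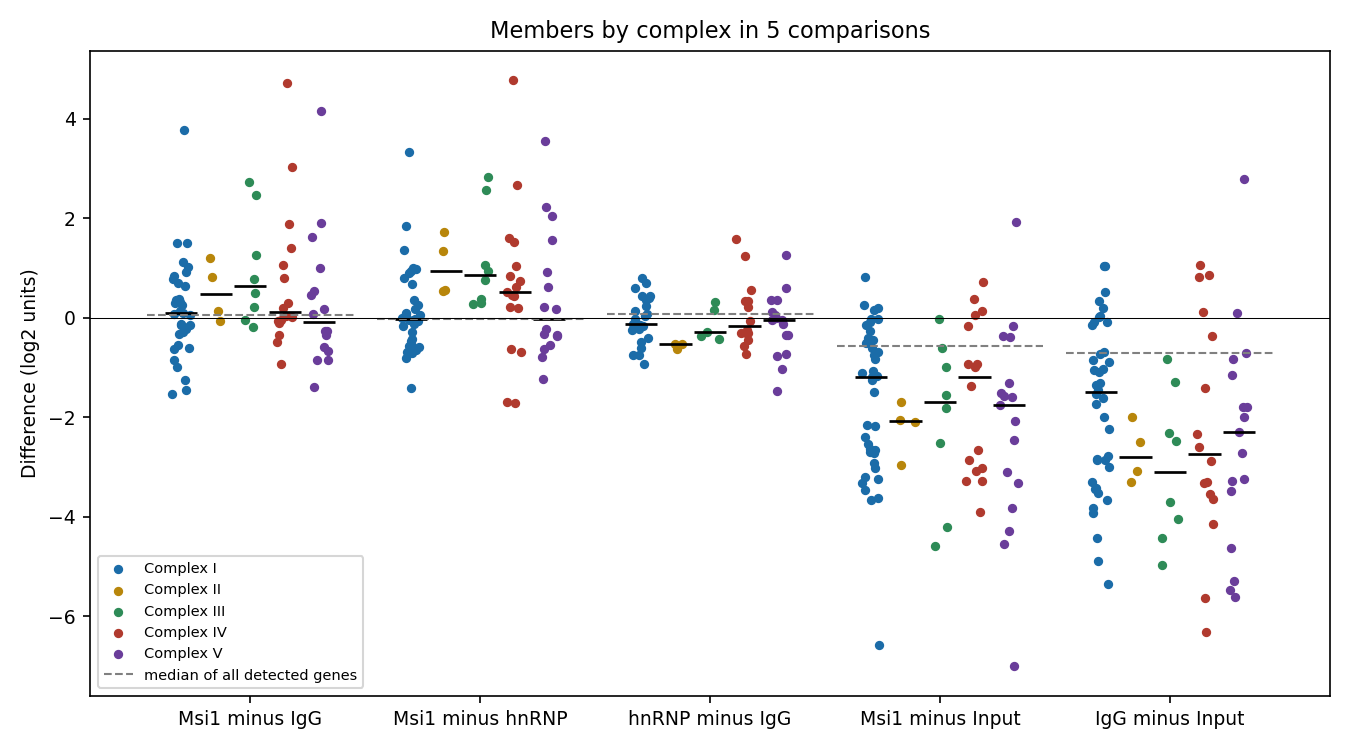
Differences in log2 units for detected members in 5 comparisons, coloured by complex, with black bars at each complex's median and dashed lines at the median of all detected genes. As deposited, the medians of complexes II, III and IV lie above the dashed line in the comparisons of Msi1 with IgG and hnRNP, and the medians of all 5 complexes lie below it in both comparisons with input.

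Neighbouring pathways are given by their counts for Msi1 against IgG. On a list of TCA cycle and pyruvate dehydrogenase genes, 11 of 16 detected genes (68.8%) were higher with Msi1 than with IgG and 0 lower. The list had a median of 1.19, led by Pdhb of pyruvate dehydrogenase at 3.32 and Dld, its lipoamide-handling partner, at 2.17. The lowest was Suclg1, a subunit of succinate-CoA ligase, at -0.30. Among electron carriers and their feeders, 5 of 8 were higher and 1 lower, with Etfa at 3.08, cytochrome c (Cycs) at 2.06 and Etfb at -1.0. The IgG signals of Pdhb, Dld and Etfa were under the floor, against which they differed by 2.38, 1.81 and 1.74. Raising signals to the floor was, for these lists, an alternative chosen after seeing the data. It left 8 of 16 TCA cycle and pyruvate dehydrogenase genes and 3 of 8 electron carriers higher.

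The genes that build the complexes, and the other short lists here, stand beside 18.6% higher and 6.91% lower among all genes. Of 23 detected assembly factors for complexes I to V that are not members, 2 were higher and 1 lower, namely Coa5 at 2.00, Cox14 at 1.11 and Sdhaf4 at -1.15, the last under the Msi1 floor and at -0.68 against it. Of 8 detected genes of coenzyme Q synthesis, 0 passed 2-fold, with Coq2 at 0.89, Coq7 at 0.44 and Coq8a at -0.87. Of 12 detected transcription factors, cofactors and mitochondrial DNA replication genes (Polg and Ssbp1), 4 were higher and 0 lower. Tfb2m was at 4.45, Gabpa at 2.43, or 1.19 against the IgG floor, and Esrra at -0.83. Also higher were Ssbp1 at 2.27, or 1.91 against that floor, and Tfam at 1.44, or 0.11 against it. With signals raised to the floor, 3 of the 12 were higher. Both mitochondrially encoded genes on single-symbol probe sets were higher, ND3 at 1.24 and COX2 at 1.13, and after quantile normalization 0 of these 2 passed 2-fold, with a median of 0.49. These are counts in 1 pair of arrays, and the difference between lists was not tested.

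The ribosomal proteins, another large family of subunits made from nuclear genes, were set beside the members. Cytosolic ribosomal protein genes had 18 of 52 higher (34.6%), 4 lower and a median of 0.67, and mitochondrial ribosomal protein genes had 14 of 65 higher (21.5%), 4 lower and a median of 0.22. After quantile normalization the cytosolic genes had 20 higher, 9 lower and a median of 0.22, and the mitochondrial ones 17 higher, 9 lower and a median of 0.09. Against input with Msi1, 62.1% of the cytosolic and 49.4% of the mitochondrial ribosomal genes were lower. Of the enterocyte markers, 5 of 6 were higher with Msi1 than with IgG, with a median of 1.77, and of the epithelial markers 2 of 5, with a median of -0.04. The 6 enterocyte markers ranged from 6.95 to 9.78 with Msi1, 4.22 to 7.07 with hnRNP, 5.10 to 7.76 with IgG and 9.53 to 11.58 in input, and the part of either list in the members' result was not tested.

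**Figure D5:**
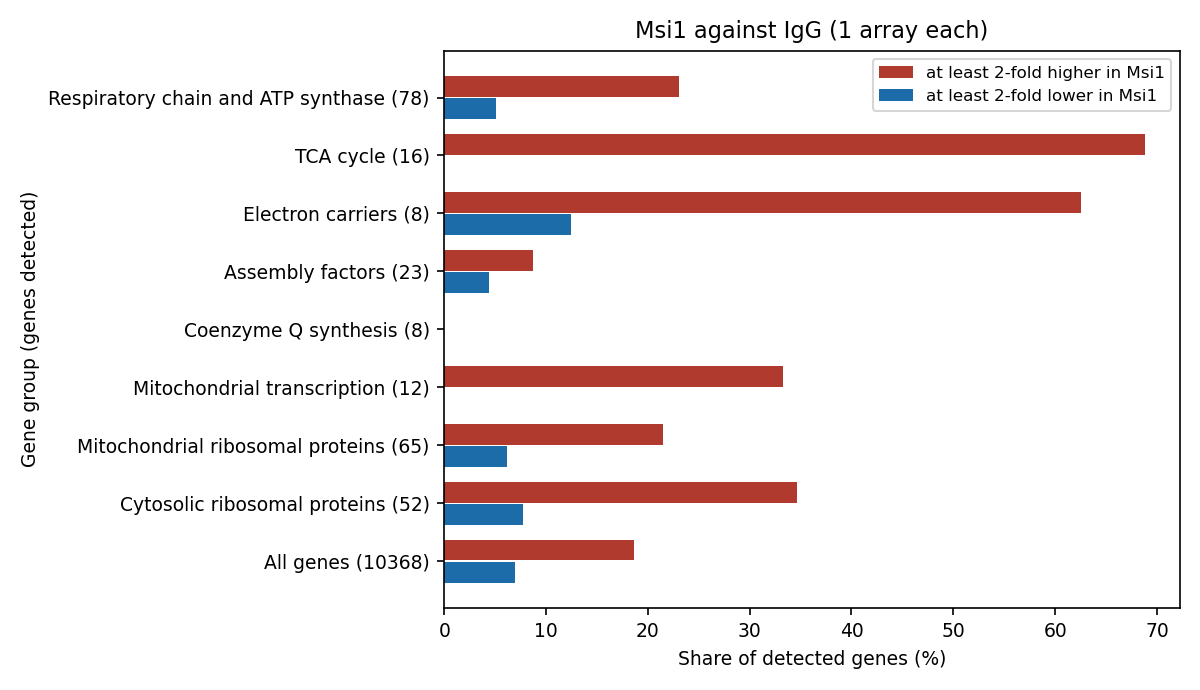
Percent of detected genes that differed 2-fold or more between Msi1 and IgG, in red where Msi1 was higher and in blue where it was lower, for the members, related lists and all genes, with the number detected in brackets. The TCA cycle list, which includes pyruvate dehydrogenase genes (68.8% higher), exceeds the respiratory genes (23.1%), which lie near all genes (18.6%).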

How the data were processed

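One array per group was available for Msi1, hnRNP, IgG and input, grouped by the antibody in the labels. The log2 signals were used as deposited by the authors, 1 per probe set. Per the submitters' processing notes the tool affy was used, and of its version, background correction and normalization the sources used here say nothing. The values span 1.07 to 14.3, from which base 2 was inferred. All 4 columns were matched by title. The members and gene lists were chosen with earlier results of these data known. For each gene the probe set brightest on average was taken, and 21640 of 34760 probe sets had 1 symbol in the platform annotation, which can be old. Named were all members past 2-fold, the extremes of each complex and comparison, core subunits, paralogs, and genes with discordant probe sets. Differences, medians and counts were computed for all genes in Python 3.11.15 (pandas 2.3.3, numpy 2.4.6, scipy 1.17.1, matplotlib 3.10.9) and the counting was tested on simulated data. Alternatives were centring, quantile normalization, the 99th percentile floor, raising signals to the floor, detection on both arrays, folds of 1.5 and 3, the probe set brightest on input, and every probe set. Promoter GC content was read from RefSeq windows on GRCm38.p6. With 1 array per group, the number of arrays limits precision and no test was made.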

Additional observations from a re-analysis of the deposited data

Results flagged for a closer look

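One signal came from a probe set left out because it carries 2 symbols, Gm12338 and Cox7c (Cox7c is a small subunit of complex IV). It read 8.23 with Msi1, 5.62 with hnRNP, 6.77 with IgG and 10.68 in input, 1.47 log2 units or 2.77-fold above IgG. The 2 other probe sets with the same pair of symbols differed by 0.88 and -0.43, the second of these below every floor. No outlier check was possible with 1 array per group.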

How the results depend on the processing

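No paired analysis was possible because each group is 1 array. Of the summary values compared with an alternative, 103 were counted as the same, 24 as moved and 1 as reversed. Those counted as the same were not all close. The members' median of Msi1 against IgG, 0.14 as deposited, became 0.02 with signals raised to the floor and 0.37 with the 99th percentile floor. Of the named genes' differences, 43 stayed within 0.58 log2 units of the deposited value and 1 moved further, Ndufa11 with 0.84 after quantile normalization. Atp5b, Cox5b, Ndufc2 and Sdha stayed within that bound but fell under 2-fold after quantile normalization. For Msi1 against IgG, quantile normalization gave 11 lower (14.1%, beside 15.1% of all genes) and a median of -0.0089, the value that reversed. Detection on both arrays gave 10 higher and 2 lower of 52 detected, a 1.5-fold threshold 13 lower, and a 3-fold threshold 9 higher and 0 lower. Every probe set, an alternative added after seeing the data, gave 30 of 99 higher, beside 19.8% of all detected probe sets with 1 symbol. For Msi1 against input, quantile normalization gave 3 higher, 33 lower and a median of -0.55, the probe set brightest on input 0 higher, and every probe set 5 higher. For Msi1 against hnRNP, detection on both arrays gave 2 lower. For hnRNP against IgG, quantile normalization gave 7 lower (10.9%, beside 10.6% of all genes). Detection on both arrays gave 1 higher there, the probe set brightest on input 1 lower, and every probe set 7 higher and 4 lower. For IgG against input, centring gave 1 higher (1.18%, beside 13.6% of all genes), and detection on both arrays 39 lower. Quantile normalization gave 9 higher there (10.6%, beside 20.7% of all genes) and a median of -0.90, beside -0.34 for all genes. Where no share stands here or above, the counts are of members only and have no background beside them. With the 99th percentile floor 51 members were detected with Msi1, 30 with hnRNP, 31 with IgG and 80 in input. Of all 19937 genes, 4834, 2612, 2067 and 8964 were detected on the same arrays. Centring moved the all-gene median of Msi1 against IgG to 0.17, against 0.06 as deposited. Raising signals to the floor left 14 higher, without Cox5a, Ndufa4, Ndufb6 and Ndufs1, and 4 lower. The cause of these changes was not tested, except that detection on both arrays and the stricter floor keep fewer genes. Signal over background limits genes read below a floor to bounds.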
